A study of Mus musculus with 12 samples.

Results

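The genes described here are 9 genes of the plasminogen and coagulation systems measured in whole mouse back skin: Plau, Plaur, Plat, F3, F10, F13a1, Thbd, Tfpi and Tfpi2. They were chosen by name, as all probes whose gene name in the array files equals one of these symbols, which gave 18 probes of 41174 and 9 gene names of 27025. The skin came from male C57BL/6J mice, purchased at 8 weeks of age, treated daily on the shaved back with 200 µL of a solution, which was 3% MXD, 10% N-CE or the vehicle VC. MXD is minoxidil, N-CE is the cell extract of the cactus Notocactus ottonis, and VC is a vehicle of propylene glycol, ethanol and water. The labels name no transgene, deletion or other allele in any group. RNA from 6 mice was pooled for each treatment at 1W, 2W and 3W, and every pool of a treatment shared 2 arrays with VC RNA from the same week, once labelled Cy5 and once Cy3. The 6 comparisons therefore rest on 1 pool per group. MXD and N-CE of a week share their VC pool and their slide, so slide and week cannot be told apart, and both treatments of a week are given side by side.

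Plasmin, the protease that dissolves fibrin and takes part in matrix remodelling, is cut from plasminogen by the activators uPA (Plau) and tPA (Plat). Clotting in tissue starts when tissue factor (F3) meets factor VII of the blood and leads through factor X (F10) to thrombin and fibrin, which factor XIII (F13a1) crosslinks. Thrombomodulin (Thbd) and the tissue factor pathway inhibitors (Tfpi, Tfpi2) hold this cascade in check, and in skin it is best known from wound repair.

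All values below are log2 ratios of the treated over the VC pool unless stated otherwise, and a value with ± is the mean and SD of the 2 arrays of a dye swap, which describes the measurement and not the mice. Calls of up- or down-regulation required a mean fold above 1.5 or below 0.75, the same sign on each array, and in each case a P under 0.01 from the scanner software, which rates the spot. No test across samples can be made within a week. Genes with several probes are represented by the probe with the highest mean signal. In bulk skin, fewer cells of a type and less RNA per cell cannot be told apart.

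Probes of 60 bases measured the members, and their sequences show which piece of each transcript a value stands for. Plau, Plaur, F3 and Plat had more than 1 probe, Tfpi had 5, and F10, F13a1, Thbd and Tfpi2 had 1 each. The sequences below are those of the only probes for F10 and Tfpi2, the dimmest of the probes that represent a member, and of second probes for Tfpi, Plaur and Plau, against which the brighter probe of each gene was compared. They are the arrays' own probe sequences, 5′ to 3′.
F10: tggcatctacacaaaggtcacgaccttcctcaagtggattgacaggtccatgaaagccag
Tfpi2: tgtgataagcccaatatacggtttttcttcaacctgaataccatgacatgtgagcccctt
Tfpi (second probe): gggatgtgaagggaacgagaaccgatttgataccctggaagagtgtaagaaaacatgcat
Plaur (second probe): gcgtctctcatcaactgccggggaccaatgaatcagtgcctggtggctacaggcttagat
Plau (second probe): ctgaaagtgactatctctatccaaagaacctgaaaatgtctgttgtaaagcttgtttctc

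Positions are on mm9 as the array files give them. F10 lies at chr8:13055774-13055833 on the plus strand and Tfpi2 at chr6:3915439-3915498 on the minus strand. The second Tfpi probe lies at chr2:84293962-84294021 on the minus strand, and the brightest Tfpi probe at chr2:84281022-84281081 belongs to another RefSeq transcript. The probe of F13a1 lies at chr13:36959214-36959273 and that of Thbd at chr2:148230235-148230294, both on the minus strand. The second probes of Plaur and Plau lie on the plus strand at chr7:25259315-25259374 and chr14:21659855-21660221, the latter over 367 bases of the genome. Exon and UTR annotation of mm9 was not used here.

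The 2 probes of F3 lie at chr3:121437335-121437394 and chr3:121437295-121437354 on the plus strand and share 20 bases, in which their designs differ. The stretch is shown because the pair of probes is no independent check on each other there. Capitals mark the differences, T9G and G15C, counted from the 5′ end of the stretch and from the brighter probe to the other.
F3 (brighter probe): ggacgaacTgaaacGgtaca
F3 (other probe): ggacgaacGgaaacCgtaca

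Most members moved little in most comparisons. With MXD for 1 week, 1 of 9 members was called up-regulated and 0 down-regulated, where 1.26% of all measured genes were called up and 1.27% down. After 2 weeks of MXD, 0 members were called up and 3 down, where the shares of all genes were 6.22% and 10.1%. After 3 weeks of MXD no member was called, with 0.295% of genes up and 0.29% down. With N-CE, 0 of 9 members were called in either direction in any week. The N-CE shares of all genes called up and down were 0.542% and 2.8% after 1 week, 0.119% and 0.076% after 2 weeks, and 0.206% and 0.217% after 3 weeks. The called members were F10 at 1W of MXD and F13a1, Thbd and Tfpi at 2W of MXD. The 3 down-regulated members at 2W are to be read against the 10.1% of all genes called down there.

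Direction without regard to size was more uniform within a comparison. At 2W of MXD, 9 of 9 members were below VC, 7 of them on both arrays, where 47.9% of all genes were below VC, and their median of -0.50 compares with 0.03 over all genes. At 1W, 8 of 9 members were above VC with MXD and 9 of 9 with N-CE, where 49% and 52.9% of all genes were, with medians of 0.20 and 0.28 against -0.01 and 0.02. With either treatment, 7 of 9 were above VC on both arrays and 2 had opposite signs. At 3W of N-CE, 9 of 9 members were below VC on both arrays, where 49.6% of all genes were below VC in the mean, with a median of -0.23 against 0.00. Tfpi2 counted as measured there through 1 VC array alone, which favours a reading below VC, so it adds no support to this count. The count also depends on the probe taken for each gene. By the mean over the probes of a gene, Plau read 0.04 ± 0.00 at 3W of N-CE, and the other members stayed below VC. At 3W of MXD, 6 of 9 members were below VC, where 49.5% of all genes were, with a median of -0.03, and 4 of 9 had opposite signs on the 2 arrays. At 2W of N-CE, 8 of 9 were below VC, where 47.3% of all genes were, with a median of -0.08. At 2W of N-CE, 7 of 9 members had opposite signs on the 2 arrays, and over all probes above background the 2 arrays of that swap correlated at -0.17, so its values did not repeat. The same correlation was 0.71 at 2W of MXD, 0.60 at 1W of N-CE, 0.57 at 1W of MXD, 0.35 at 3W of N-CE and 0.26 at 3W of MXD.

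**Figure D1:**
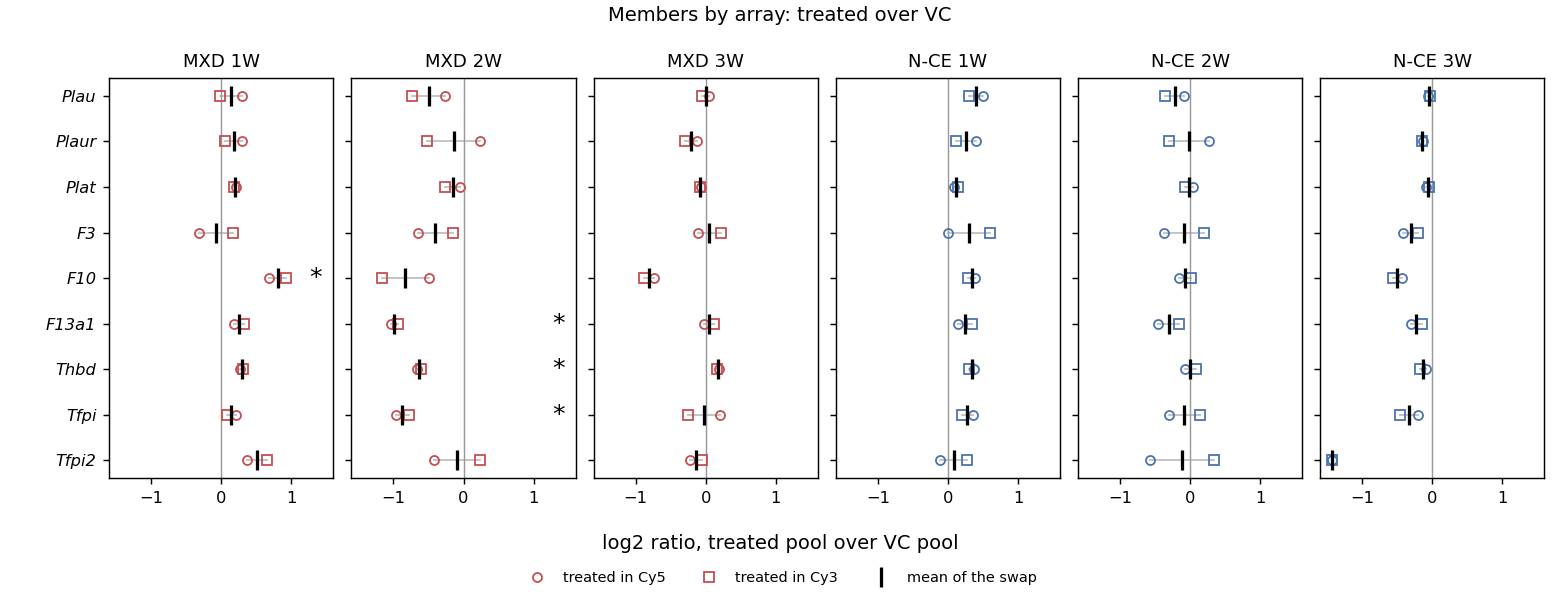
The log2 ratio of treated over VC (horizontal axis) is plotted for each member on the array with the treated pool in Cy5 (circles) and in Cy3 (squares), with the mean of the swap (bar) and an asterisk for a called member. At 2W of MXD the 9 means lie between -0.99 and -0.10, and the circles and squares of F13a1 and Thbd nearly coincide while those of Plaur and Tfpi2 lie on opposite sides of 0.

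Of the activators and their receptor, none was called in any comparison. Plau, which encodes the urokinase-type activator uPA, read 0.29 and -0.02 on the arrays with MXD in Cy5 and in Cy3 at 1W, -0.26 and -0.73 at 2W, then 0.05 and -0.06 at 3W. With N-CE it read 0.50 and 0.30 at 1W, -0.09 and -0.36 at 2W, then -0.06 and -0.03 at 3W. Both treatments thus had their lowest mean at 2W, -0.50 ± 0.33 for MXD and -0.22 ± 0.19 for N-CE. For this probe, the array with MXD in Cy3 at 2W was the only one with a spot P under 0.01. At 1W of N-CE the mean was 0.40 ± 0.14, with both arrays above VC. The second, dimmer Plau probe, above background in 16 of 24 channel readings, gave 0.00 ± 0.23 at 2W of MXD and 0.19 ± 0.25 at 1W of N-CE. At 2W of N-CE it gave -0.63 ± 0.52, with a spot P of 0.00623 on the array with N-CE in Cy3. The 2 probes therefore did not give the same value at 2W of MXD.

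Plaur encodes uPAR, the cell-surface receptor that holds uPA at the cell edge. Its ratios were 0.30 and 0.05 at 1W of MXD, 0.24 and -0.52 at 2W, then -0.13 and -0.30 at 3W. With N-CE they were 0.40 and 0.12 at 1W, 0.27 and -0.30 at 2W, then -0.13 and -0.15 at 3W. The sign at 2W depended on the dye with either treatment, and the Cy5 channel read higher than the Cy3 channel for this probe in all 6 comparisons, by 0.17 on average on the log2 scale. The second probe gave -0.30 ± 0.27 at 2W of MXD and 0.33 ± 0.05 at 1W of N-CE, on the same side of VC as the brighter one.

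Plat encodes tPA, the activator that works best on fibrin. It had the narrowest range of the 9 members, from -0.15 ± 0.15 at 2W of MXD to 0.20 ± 0.02 at 1W of MXD. At 1W of MXD the arrays read 0.21 and 0.19, and the signal was 2469 and 2449 in VC and 2855 and 2789 in MXD. With N-CE the means were 0.12 ± 0.04 at 1W, -0.02 ± 0.08 at 2W and -0.07 ± 0.04 at 3W. A difference of this size was below the fold used for calls. The second probe lay between -0.28 and 0.11 over the 6 comparisons. The remaining Plat probe was above background in only 4 of 24 channel readings and gives no usable ratio.

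F3, tissue factor, is the membrane protein that starts clotting outside vessels and is found in epidermis and around vessels. Its ratios were -0.32 and 0.17 at 1W of MXD, -0.65 and -0.15 at 2W, then -0.11 and 0.21 at 3W. With N-CE they were -0.00 and 0.61 at 1W, -0.37 and 0.20 at 2W, then -0.41 and -0.21 at 3W. In each of the 6 comparisons the array with the treated pool in Cy3 read higher, a dye effect of -0.22 on average that the swap balances in the mean. The means were -0.40 ± 0.35 at 2W of MXD, 0.30 ± 0.43 at 1W of N-CE and -0.31 ± 0.15 at 3W of N-CE, of which the first and the second were about as large as their SD or smaller. The overlapping second probe differed from the first by little, with -0.43 ± 0.33, 0.31 ± 0.31 and -0.25 ± 0.09 in these comparisons.

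F10, the vitamin K-dependent factor whose active form cuts prothrombin, was the only member called up-regulated. At 1W the signal in VC was 131 and 113 and that in the MXD pool 211 and 213. The ratios were 0.68 and 0.92, a mean of 0.80 ± 0.17 or 1.74-fold, with spot P of 0.00188 and 5.85e-05. Both MXD readings lay above both VC readings. In the weeks that followed, F10 was below VC with MXD. It read -0.50 and -1.17 at 2W and -0.74 and -0.88 at 3W, with means of -0.83 ± 0.47 and -0.81 ± 0.10. At 3W the signal was 59.3 and 62.0 in VC and 35.4 and 33.7 in MXD, with no overlap, and the spot P values of 0.0240 and 0.00888 kept it from a call. The mean at 3W lay at percentile 0.539 of all genes measured.

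With N-CE the course of F10 was shallower, at 0.34 ± 0.07 at 1W, -0.07 ± 0.12 at 2W and -0.50 ± 0.09 at 3W. MXD minus N-CE came to 0.46 ± 0.24 at 1W and -0.31 ± 0.00 at 3W. F10 is a dim gene whose folds depend on the background correction. With normexp background correction and loess in place of the processed ratio, the folds at 1W, 2W and 3W of MXD were 0.51, -0.24 and -0.31, in the same direction, and F10 was no longer called at 1W.

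F13a1 encodes the A subunit of factor XIII, which crosslinks fibrin and is known from dermal macrophages. At 2W of MXD its signal was 31023 and 23768 in VC and 15068 and 12491 in MXD. The ratios were -1.04 and -0.93, a mean of -0.99 ± 0.08, or 0.505 of VC, with spot P of 3.72e-06 and 2.67e-05, and the gene was called down-regulated. The readings of the 2 pools did not overlap. At 1W and 3W of MXD the means were 0.25 ± 0.10 and 0.05 ± 0.10. N-CE gave 0.24 ± 0.14 at 1W, -0.31 ± 0.21 at 2W and -0.23 ± 0.12 at 3W. MXD minus N-CE was -0.68 ± 0.13 at 2W and 0.28 ± 0.01 at 3W. In normalized log2 intensity, VC readings of the same RNA differed between the 2 sets of arrays by 0.17 at 2W and 0.44 at 3W. Intensities and ratios are unlike measures, so the VC differences are given as a caution and not as the error of MXD minus N-CE.

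Thbd encodes thrombomodulin, which sits on endothelial cells and keratinocytes and turns thrombin toward activating protein C. Its signal at 2W was 2339 and 1872 in VC and 1480 and 1226 in MXD. The ratios of -0.66 and -0.61 gave a mean of -0.64 ± 0.04, or 0.644 of VC, with spot P of 0.00193 and 0.00397. The gene was called down-regulated. With normexp and loess the fold was -0.64 and still passed the fold used for calls, while the spot P was not computed anew. At 1W and 3W of MXD it was above VC by less than the fold used for calls, at 0.29 ± 0.03 and 0.18 ± 0.02. N-CE gave 0.34 ± 0.05 at 1W, 0.00 ± 0.12 at 2W and -0.13 ± 0.06 at 3W. MXD minus N-CE was -0.64 ± 0.08 at 2W, and the VC readings differed by -0.18 in normalized log2 intensity.

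Tfpi encodes the inhibitor of factor Xa and of the complex of tissue factor with factor VIIa, which endothelial cells make. At 2W of MXD the signal of its brightest probe was 572 and 374 in VC and 293 and 217 in MXD. The ratios were -0.96 and -0.78, a mean of -0.87 ± 0.13, or 0.546 of VC, with spot P of 1.83e-05 and 0.000416. N-CE of the same week gave -0.08 ± 0.31, and MXD minus N-CE was -0.79 ± 0.18. At 1W the means were 0.14 ± 0.09 for MXD and 0.28 ± 0.12 for N-CE, and at 3W they were -0.03 ± 0.32 and -0.34 ± 0.18.

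Neither of the other Tfpi probes above background carried the call at 2W of MXD. The probe named second above, with a mean signal of 58.0, gave -0.73 ± 0.55. The remaining probe above background, slightly brighter at 64.3, gave -0.33 ± 0.37. All lay on the same side of VC in the mean. The mean over these 3 probes was -0.64 ± 0.35, and by it Tfpi was not called. The other 2 Tfpi probes, which belong to other transcript records, were above background in 0 of 24 channel readings and are not read.

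**Figure D2:**
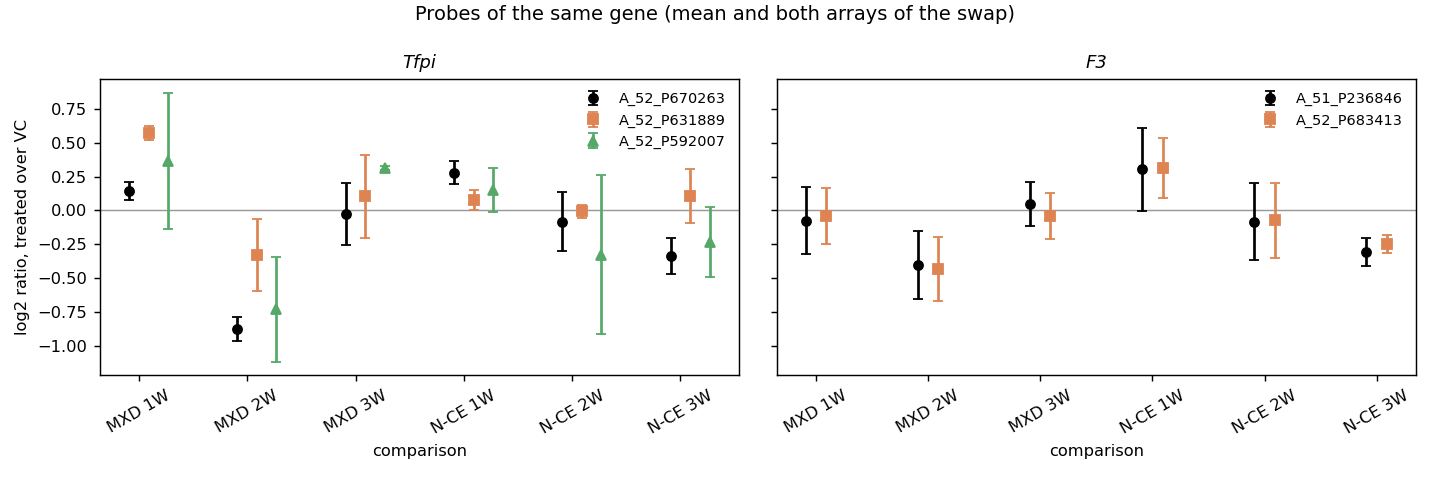
The log2 ratio of treated over VC (vertical axis) is plotted by comparison for each Tfpi and F3 probe above background in all channel readings, with the mean as a point and the 2 arrays of the swap as the ends of the bar. The 3 Tfpi probes read -0.87, -0.73 and -0.33 at 2W of MXD, and the 2 F3 probes differ by little in each comparison.

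Tfpi2 encodes a Kunitz-type inhibitor of the matrix that blocks plasmin and other proteases. At 1W of MXD it read 0.37 and 0.65, a mean of 0.51 ± 0.20 or 1.43-fold, which missed the fold used for calls and, on 1 array, the P threshold. At 3W of N-CE it has only a bound. The processed ratio read -1.43 on both arrays, and with normexp and loess the fold was -0.41. The signal was 32.3 and 39.0 in VC and 12.0 and 14.5 in N-CE. The gene was above background on 1 of 2 arrays in VC and on 0 of 2 in N-CE, and with spot P of 0.0826 and 0.00961 it was not called. The bound came to 1.28-fold lower than VC. It used normexp-corrected values scaled between arrays, with the dim pool set to the lowest signal above background where it read less. Both VC arrays entered it, 1 of them not above background, so it is a rough figure and no certain minimum. MXD of the same week gave -0.14 ± 0.11. In the other weeks N-CE gave 0.08 ± 0.27 and -0.12 ± 0.65, and MXD gave -0.10 ± 0.47 at 2W, each smaller than its SD.

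Levels across the 9 pools were also compared in normalized log2 intensity. Small differences from VC did not all keep the sign of the ratios. For example, Tfpi2 at 2W of MXD read 6.46 against 6.43 in VC, and Plau at 3W of N-CE 7.854 against 7.849. F13a1 was highest at 1W of N-CE (14.15 ± 0.11) and lowest at 2W of MXD (12.51 ± 0.01), a span of 1.64. Thbd spanned 1.23, from 10.45 ± 0.04 at 1W of N-CE to 9.23 ± 0.02 at 2W of MXD, and Tfpi 1.00, from 8.49 ± 0.20 at 1W of MXD to 7.49 ± 0.09 at 2W of MXD. These 3 genes, and Plau, which was not called, had their lowest level of all pools at 2W of MXD, below every reading of the other pools. Plaur and F3 also had their lowest mean there, with readings that overlapped those of the next pool. The share of all genes with their lowest level at 2W of MXD was not computed. Folds over all genes spread most in that comparison, with an SD over genes of 0.59 against 0.21 to 0.39 in the others. F10 spanned 1.22, from 7.77 ± 0.09 at 1W of MXD to 6.54 ± 0.08 at 3W of MXD, and its VC pools read 7.23 ± 0.09, 6.82 ± 0.09 and 6.81 ± 0.05 at 1W, 2W and 3W. The spans of Plau, Plaur, Plat, F3 and Tfpi2 were 0.69, 0.76, 0.63, 0.69 and 0.93. Ordered by mean, F3 had 0 of 8 neighbouring pools whose readings did not overlap, Tfpi 1, Plaur and Thbd 2, Plau, Plat, F13a1 and Tfpi2 3, and F10 4. Such counts were not made for all genes, so they describe these members alone.

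**Figure D3:**
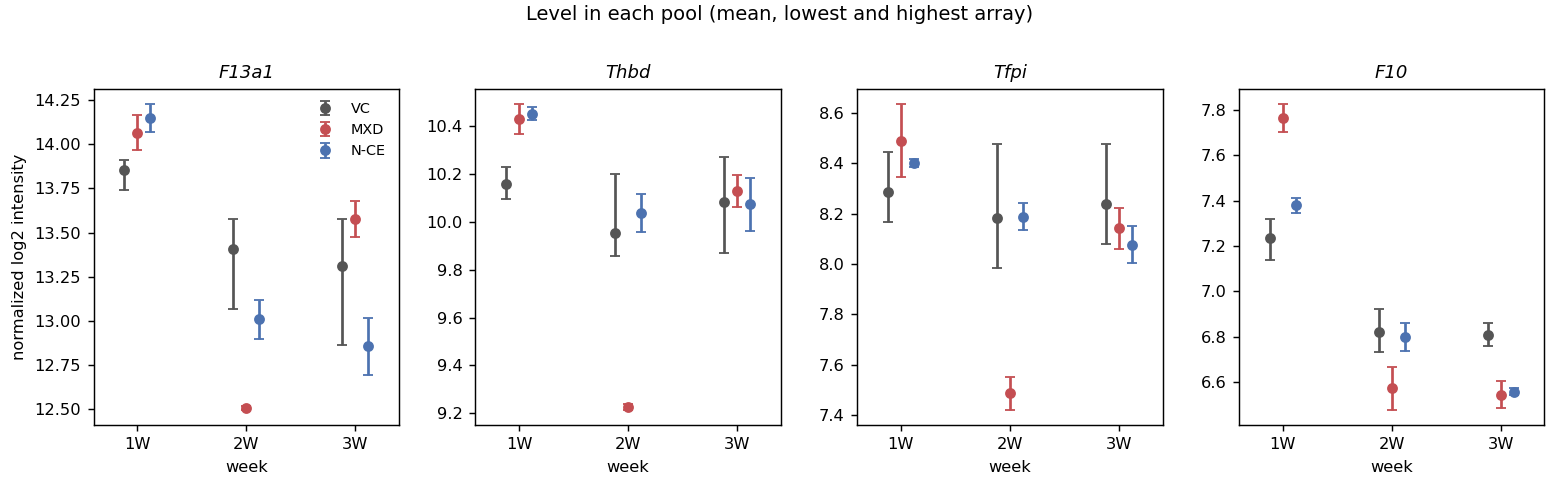
Normalized log2 intensity (vertical axis, a scale of its own for each gene) is plotted by week for the VC, MXD and N-CE pools, with the mean as a point and the lowest and highest array as the ends of the bar (4 arrays for VC, 2 for the others). The MXD pool at 2W lies below all other pools for F13a1, Thbd and Tfpi, and the MXD pool at 1W lies above all others for F10.

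A shift shared by the 3 weeks was not detected for any member. With the weeks standing in for replicates, limma gave 0 probes with an adjusted p under 0.05 for MXD, for N-CE and for MXD minus N-CE, with 3098 of 41068, 1490 of 40895 and 2021 of 40820 probes at an unadjusted p under 0.05. Adjusted p of the members ranged from 0.685 to 1 for MXD and up to 0.945 for MXD minus N-CE, and was 1 for each with N-CE. The mean over weeks of F10 with MXD was -0.28 with an interval from -1.82 to 1.26, and that of Tfpi2 with N-CE, in which 3W has only a bound, was -0.49 with an interval from -1.89 to 0.91. The interval of Plat with N-CE ran from -0.16 to 0.19, and that of Plaur for MXD minus N-CE from -0.27 to 0.08. On simulated data this fit recovered 0 of 200 probes shifted by 1.5 on the log2 scale, a shift wider than the mean fold of any member in any week.

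Lists of cell type markers went different ways at 2W of MXD. Of 12 macrophage markers, 11 were below VC and 6 were called down-regulated, with a median of -0.71, among them Cd163 (-1.08 ± 0.02) and Mrc1 (-0.87 ± 0.03), and the summed signal of the list was 81956 and 74420 in VC and 69941 and 55908 in MXD. Of 10 endothelial markers, 10 were below VC and 3 were called, Tek (-0.78 ± 0.24), Emcn (-0.78 ± 0.18) and Cldn5 (-0.93 ± 0.21), with a median of -0.45 and sums of 30380 and 28542 in VC and 24498 and 19570 in MXD. Of 6 mast cell markers 2 were called down and Kit up, with a median of -0.58. Of 10 markers of activated keratinocytes 6 were called up and Sprr2d down, with a median of 0.90. Of 6 measured neutrophil markers, 3 were above VC and 3 below, with a median of -0.13 and 1 called up. Of 8 skin markers, 6 were below VC with a median of -0.70, Krt1, Krt10 and Lor were called down-regulated, Krt5 and Krt14 read 0.09 ± 0.46 and -0.05 ± 0.39, and all 8 were above background in both pools on all arrays. The lower values were thus not confined to macrophage, endothelial and mast cell lists. The part of these shifts in the values of F13a1, Thbd and Tfpi was not tested. Counts of called markers are to be read against the 6.22% of all genes called up and the 10.1% called down at 2W of MXD. Hepatocytes, the main source of circulating clotting factors, are marked by Apoa1 and Ttr, which were above background on 0 arrays, while Alb and Hp were above background on all arrays. At 2W of MXD, 3 of the 4 measured hepatocyte markers were below VC with a median of -0.65, and 0 were called.

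Beside F10 at 1W of MXD, 5 of 8 measured neutrophil markers were called up-regulated with a median of 1.41, led by S100a8 (2.89 ± 0.00), and their summed signal was 2799 and 3507 in VC and 15201 and 21027 in MXD. Activated keratinocyte markers had 5 of 10 called up with a median of 1.15. Of all measured genes, 1.26% were called up in this comparison. Macrophage markers were above VC in 10 of 12 cases, with a median of 0.25 and none called. Beside the members at 1W of N-CE, with a median of 0.28, 11 of 12 macrophage, 9 of 10 endothelial and 5 of 6 mast cell markers were above VC, with medians of 0.19, 0.29 and 0.39 and none called. At 2W of N-CE, 12 of 12 macrophage markers were below VC with a median of -0.28 and none called. At 3W of N-CE, 10 of 12 macrophage and 9 of 10 endothelial markers were below VC with medians of -0.24 and -0.05 and none called. The part of these markers in the values of the members was not tested.

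**Figure D4:**
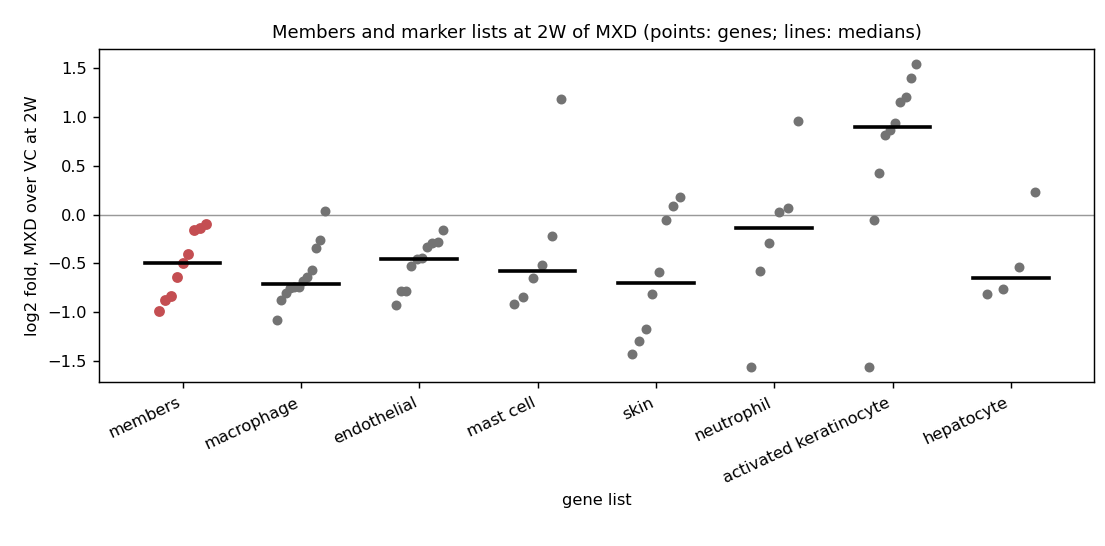
The log2 fold of MXD over VC at 2W (vertical axis) is plotted for the 9 members (red) and for the measured genes of 7 marker lists (grey), each point a gene and each line a median. The medians of the macrophage, endothelial and mast cell lists lie at -0.71, -0.45 and -0.58 and those of the skin and hepatocyte lists at -0.70 and -0.65, beside -0.50 for the members. The median of the neutrophil list lies at -0.13 and that of the activated keratinocyte list at 0.90.

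Calls among other genes of these systems fell at 1W and 2W of MXD, and a difference from N-CE in their number was not tested. At 1W, Mmp13, a collagenase that plasmin can activate, read 1.23 and 1.16, a mean of 1.19 ± 0.05 or 2.29-fold, the only call among 11 plasminogen-related genes. With normexp and loess its fold was 0.54, which missed the fold used for calls. Of all measured genes, 1.26% were called up and 1.27% down at 1W of MXD. The rise of Mmp13 stood beside values of 0.13, 0.18 and 0.20 for Plau, Plaur and Plat.

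At 2W of MXD, 2 of 10 measured plasminogen-related genes were called, St14 up (0.98 ± 0.06), which encodes the epithelial protease matriptase, and Mmp3 down (-1.30 ± 0.24). Of 6 measured inhibitors, Serpini1 (0.92 ± 0.14) was called up and Serpine2 (-0.89 ± 0.26) and Serping1 (-1.03 ± 0.30) down. Serpine2 encodes protease nexin-1, an inhibitor of thrombin and uPA, and Serping1 the C1 inhibitor. Of 8 measured clotting genes, 3 were called down: Vwf (-0.64 ± 0.13), the platelet-binding protein of endothelium, Vkorc1 (-0.56 ± 0.00), the vitamin K reductase, and Tgm2 (-0.95 ± 0.25), the tissue transglutaminase. Of 10 measured anticoagulants and thrombin receptors, Procr (0.78 ± 0.04), the receptor of protein C, was called up and Pros1 (-0.80 ± 0.14) and Gas6 (-0.67 ± 0.04) down, where Pros1 encodes protein S. These counts are to be read against the 6.22% of all genes called up and the 10.1% called down in this comparison. The medians of the 4 lists were -0.36, -0.56, -0.14 and -0.00 in this order, against 0.03 over all genes. Thbd and Procr, which act together in activating protein C, were called in opposite directions.

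At 3W of MXD and at all weeks of N-CE, 0 genes of the 4 lists were called. Few genes of any kind were called in these comparisons. The shares of all genes were 0.295% up and 0.29% down at 3W of MXD, and between 0.076% and 2.8% with N-CE. The highest and lowest measured genes there were F2rl2 (0.49 ± 0.41) and Plg (-0.64 ± 0.55) at 3W of MXD, F7 (0.72 ± 0.34) and F2rl2 (-0.63 ± 0.25) at 1W of N-CE, Serpini1 (0.36 ± 0.13) and Cpb2 (-0.38 ± 0.06) at 2W, and St14 (0.27 ± 0.34) and Mmp13 (-0.46 ± 0.27) at 3W. At 1W of MXD they were F7 (1.56 ± 1.55) and F2rl2 (-1.05 ± 1.45), and at 2W Serpinc1 (1.13 ± 0.88) and Mmp3. Several of these extremes, such as F7 and F2rl2 at 1W of MXD, had an SD about as large as their mean. Of 17 clotting genes, 6 to 10 were measured in a comparison, and the fibrinogen genes Fga and Fgg were above background on 0 arrays.

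**Figure D5:**
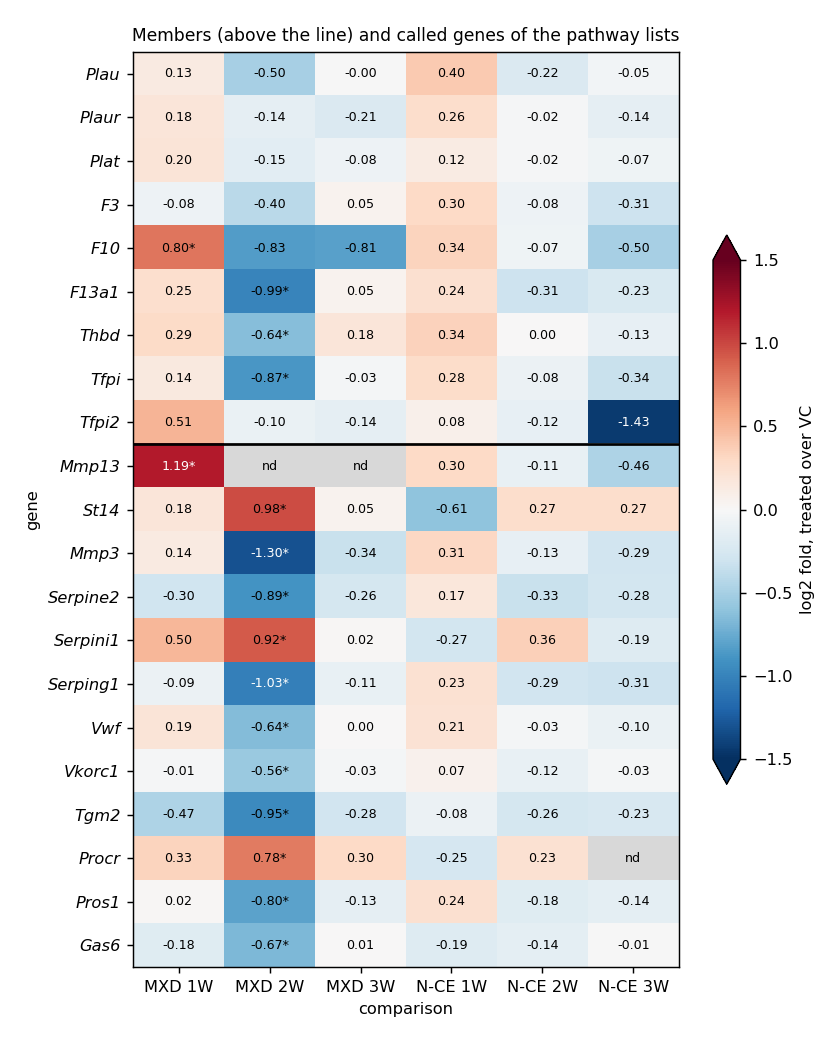
The colour and printed number give the log2 fold of treated over VC for the 9 members (above the line) and for the genes of the 4 pathway lists called in any comparison, by comparison, with asterisks for calls. Grey fields marked nd were below background in both pools or lacked a value on 1 array. The calls lie in the columns of MXD at 1W and 2W.

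The genes whose 12 array ratios were most like those of a member, among 14519 other genes above background on all arrays, are given as a description. For Thbd they were Evi2a and Tmeff2 (Pearson r 0.99 each), for F13a1 Rhoj (0.99), Ctla2b and Hmgn3 (0.98 each), and for Tfpi Sp110, Hhex and Clec5a (0.97 each). For Plau they were Cacng1 and Tmem106a (0.97 each) and Islr (0.96), for Plaur Fgd2 (0.92), Jdp2 and Mettl21a (0.91 each), and for Plat Prune2, Cfb and Mgp (0.93 each). F3 was most like Cept1, D830012I24Rik (0.98 each) and Rab9 (0.97). F10 was most like Thbs2 (0.95), Prune2 (0.94) and Plat (0.92), itself a member. Among members, Thbd resembled F13a1 (0.96) and Tfpi (0.95), while F3 and Plaur had an r of -0.21. The 12 ratios come from 6 comparisons, share VC pools and carry the dye effects of each probe. Tfpi2 was not above background on all arrays and was left out.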

How the data were processed

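RNA of pooled back skin was measured on Agilent mouse 2-colour arrays, 12 in all. Spots were quantified by the authors in Agilent Feature Extraction (version 12.0.3.1 in the file headers, 11.0.1.1 in the submitters' processing notes). Its deposited output gives each spot a log10 ratio (Cy5 to Cy3, background-subtracted and LOWESS-normalized), a p-value for that ratio from the software's error model, and signal intensity per channel, both raw and processed. The authors also deposited a matrix of log10 ratios for the series. Positions (mm9) and symbols were taken from the array files. The arrays' precision is limited by their number, 2 per comparison.

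Signs were set so that a positive log2 ratio means more RNA in the treated pool. Control spots and 143 to 355 outlier spots per array were left out, none of them of a member. Of all spots, 0 were saturated, and 57.0% to 69.6% of transcript spots were well above background in a channel. Spots of a probe and the 2 arrays of a swap were averaged. A gene counted as measured when above background in at least 1 channel reading. Levels and lower bounds used normexp correction (offset 50), loess and Aquantile scaling. Folds of the 3 weeks were also fitted with limma (moderated test, p adjusted by Benjamini-Hochberg over all probes). Software was Python 3.11.15, numpy 2.4.6, pandas 2.3.3, R 4.3.3, limma 3.58.1 and matplotlib. On simulated data the calls recovered 173 to 188 of 200 probes shifted by 1.5 (log2). Unshifted probes were given opposite signs on the 2 arrays, so none could be called, and the rate of false calls was not tested.

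The members and all gene lists were chosen with earlier results of these data known. Named were all member probes, the called, highest and lowest genes of 4 pathway lists, defining markers of 7 cell-type lists, and for each member the 3 genes with the most similar ratios. Results for some genes that these rules name are not reported here, and list counts leave them out. Ly6g and Serpina1a are not names on these arrays. Marker symbols were matched to older names where needed. Alternatives covered background correction, outlier spots, the mean, single arrays, matrix values, the P and fold thresholds, dim probes, the probe of a gene, slide and week.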

Additional observations from a re-analysis of the deposited data

How the results depend on the processing

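The members called with MXD at 2W were the same 3 with symmetric folds and with normexp and loess, and the count stayed at 3 with outlier spots kept, arithmetic means, matrix values and dim probes left out; with the mean over the probes of a gene it was 2, without Tfpi. At 1W of MXD the count fell from 1 to 0 with normexp and loess. Calls with normexp and loess kept the spot P of the processed ratio, so only their fold was tried anew. With no P threshold the counts were 5 at 2W of MXD (F10 and Plau added), 1 at 3W of MXD (F10) and 2 at 3W of N-CE (F10 and Tfpi2). With 1 array of the swap alone the counts were 1 to 2 at 1W of MXD, 4 to 5 at 2W, 0 to 1 at 3W, 0 to 1 at 1W of N-CE and 0 to 1 at 3W of N-CE. All other settings run gave these counts unchanged, 0 at 2W of N-CE included, and limma gave 0 probes in each setting, with the lowest adjusted p between 0.0774 and 1. No called result changed direction. Of 92 folds of member probes, 21 moved by more than 1 SD with normexp and loess and 71 did not; its offset of 50 lowers folds of dim probes by construction. Pools of a week were paired in the MXD minus N-CE fit, and a limma fit with the slide as a random block also gave 0 probes in each contrast. Signal over background limits Tfpi2, whose probe was well above background in 20 of 24 channel readings, and 1 pool per group limits all values to these pools.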
